A study of Mus musculus with 36 samples.

Results

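The genes described here encode 30 subunits of the BAF and PBAF chromatin remodelling complexes and of the related non-canonical complex (GBAF). Members were chosen by name and not by a rule on their values, but with earlier results of these data known. Of the 30, 29 had a line among the 25965 genes of the deposited table, and Gltscr1l was not analysed here. All 29 lie on autosomes. RNA-seq was performed on female Xmas mouse embryonic stem cells (mESCs) of the strain C57/Bl6, from the lines X14 and X18. Female Xmas cells are derived with a GFP and an mCherry reporter on different X chromosomes, at the housekeeping gene Hprt. The study found that mESCs showing only GFP or only mCherry carried just the matching reporter allele. It also reports that such cells became more abundant in culture. Whether the cells of each library kept both X chromosomes and both reporters was not tested here. Cells expanded in 2i medium with LIF were weaned stepwise into serum medium without LIF (DME HiHi), with no other treatment, and RNA was collected on each day from day 0 to day 8. Each day has 4 libraries, which are given below in the order X14 double, X14 single, X18 double and X18 single (replicates 1 to 4), so that 36 libraries were examined. The words double and single are used only as names, since the labels do not define them, and whether a line is 1 clone is not given in the sources used here. Nothing says that the 4 libraries of a day came from separate cultures other than their line and label, so p-values measure the spread between these libraries, which may in part be technical. Below, culture stands for a line and label that recurs on each day. Whether 1 culture was sampled over all days is not given in the sources used here.

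BAF complexes use the energy of ATP to slide or evict nucleosomes. An ATPase, either Smarca4 (BRG1) or its paralogue Smarca2 (BRM), sits on a core built from the Smarcc, Smarcd, Smarce1 and Smarcb1 proteins, and several positions in the complex can be filled by alternative paralogues. The canonical complex is defined by Arid1a or Arid1b, PBAF by Arid2, Pbrm1, Brd7 and Phf10, and GBAF by Brd9 and Gltscr1. Mouse ES cells are known for an assembly built around Smarca4, Smarcc1, Smarcd1, Actl6a and Dpf2, whereas Smarca2, Smarcc2, Actl6b, Dpf1, Dpf3 and Ss18l1 are known from differentiated cells, above all neurons. Smarca4 and Smarcc1 were also the subunits whose depletion was examined in the study, in other samples not analysed here.

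The sequence upstream of 4 subunits is shown because the results below turn on them. They were chosen after their values were seen. Actl6a was called lower on days 5 to 8, Dpf1 was called higher and then lower, and Smarca2 and Bcl7c were higher on day 8. The windows come from RefSeq (build GRCm38.p6, the patched mm10) and were cut before the first base of any exon annotated on the same strand in GENCODE M21. They lie at chr3:32708296-32708506 (Actl6a, plus strand), chr7:29303755-29303950 (Dpf1, plus strand), chr19:26604910-26605049 (Smarca2, plus strand) and chr7:127708934-127709016 (Bcl7c, minus strand). Each is printed 5′ to 3′ along the strand of its gene, and capitals mark the GC box (GGGCGG) and the CCAAT box on either strand.
Actl6a: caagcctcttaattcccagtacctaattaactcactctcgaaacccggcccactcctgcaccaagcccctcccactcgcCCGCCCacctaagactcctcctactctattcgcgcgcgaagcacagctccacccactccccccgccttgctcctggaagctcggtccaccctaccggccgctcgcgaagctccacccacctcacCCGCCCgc
Dpf1: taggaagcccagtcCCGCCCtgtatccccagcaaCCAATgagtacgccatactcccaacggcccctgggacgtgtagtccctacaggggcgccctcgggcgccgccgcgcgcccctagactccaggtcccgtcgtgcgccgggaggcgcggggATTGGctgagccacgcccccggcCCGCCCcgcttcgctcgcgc
Smarca2: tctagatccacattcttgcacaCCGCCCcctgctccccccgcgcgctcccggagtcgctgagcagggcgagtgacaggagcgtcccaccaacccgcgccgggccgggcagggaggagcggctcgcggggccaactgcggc
Bcl7c: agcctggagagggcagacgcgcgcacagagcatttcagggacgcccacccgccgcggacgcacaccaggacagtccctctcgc
The windows of Actl6a and Dpf1 held 2 GC boxes each, that of Smarca2 held 1 and that of Bcl7c held 0. Dpf1 had 2 CCAAT boxes, and the other windows had 0. No window held TATAAA. Over the full windows of 250 bases before the start site, 24 of the 29 subunits had an entry (the first listed for each gene was used). A GC box was present in 19 of these 24, a CCAAT box in 5 and TATAAA in 1, and among all 27025 windows of the RefSeq promoter table the shares were 32.9%, 34.5% and 13%. The median number of CpG dinucleotides was 23.5 in the 24 subunits (range 4 to 51) and 6 over all windows. The 27025 windows were not limited to genes expressed in these libraries. No share among expressed genes is given, so these contrasts are not read as particular to the subunits. A match describes letters in a window and does not mark a bound site.

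The deposited values were log2 RPKM, from which whole reads were recovered. Levels are given below as RPM within a gene and as RPKM between genes. RPM are reads scaled by the library total behind the deposited values, and 77.7% to 90.9% of this total lay in genes. The libraries held 612740 to 2445826 reads in genes, with a median of 1297944, and 3 reads, taken as the floor, corresponded to 1.04 to 3.9 RPM. A total of 14612 genes, 28 subunits among them, had at least 1 RPM in at least 4 libraries and were tested. Actl6b did not pass this filter. The 4 markers of the primed state (Fgf5, Otx2, Dnmt3b and Pou3f1) summed to 16.4 to 99.5 RPM on day 0 and to 1650 to 3400 RPM on day 4, and the 8 naive markers fell from 3990 to 5110 RPM on day 0 to 366 to 724 RPM on day 8. The 9 neuronal markers summed to 384 to 674 RPM on day 0 and to 77.4 to 132 RPM on day 8. Most of this sum was Stmn2 (385 RPM on day 0), and of the 7 neuronal markers tested 1 was called higher and 3 lower on day 8. The 6 markers of striated muscle stayed between 4.93 and 41.1 RPM in all libraries and the 4 lymphoid markers between 0 and 8.54 RPM. In bulk RNA, fewer cells of a type and less RNA per cell cannot be told apart.

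Some libraries stood apart from the others. The long-exon index of a library is here the median deviation of genes with at least 6000 bases of exon minus that of genes with under 2000 bases (log2, deviations from each gene's mean over the 36 libraries, genes of at least 10 RPM on average). On day 0 it was 0.49, -0.54, -1.55 and -1.09 in the 4 libraries, on day 5 it was -1.06 in X14 double against 0.17 to 0.59 in the others, and on day 8 it was 1.05, 0.65, -0.18 and -0.6. The subunits have long transcripts, with a median of 5344 exonic bases against 3490 in all genes tested, and 13 of the 28 tested had at least 6000. The balance of X-linked over autosomal genes was higher in double than in single libraries on every day in X18 and on days 1 to 8 in X14, but on day 0 it was -0.78 in X14 double and 0.51 in X14 single. The 2 day 0 libraries of X14 therefore went against the labels of the other days, and results by label are given with and without day 0. Where 2 libraries are left out below, these are day 0 X18 double and day 5 X14 double, which had the lowest shares of reads in genes (77.7% and 79.6%). By the long-exon index alone, X18 single on day 0 and on day 1 (-1.1) lay as low as the latter.

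**Figure D1:**
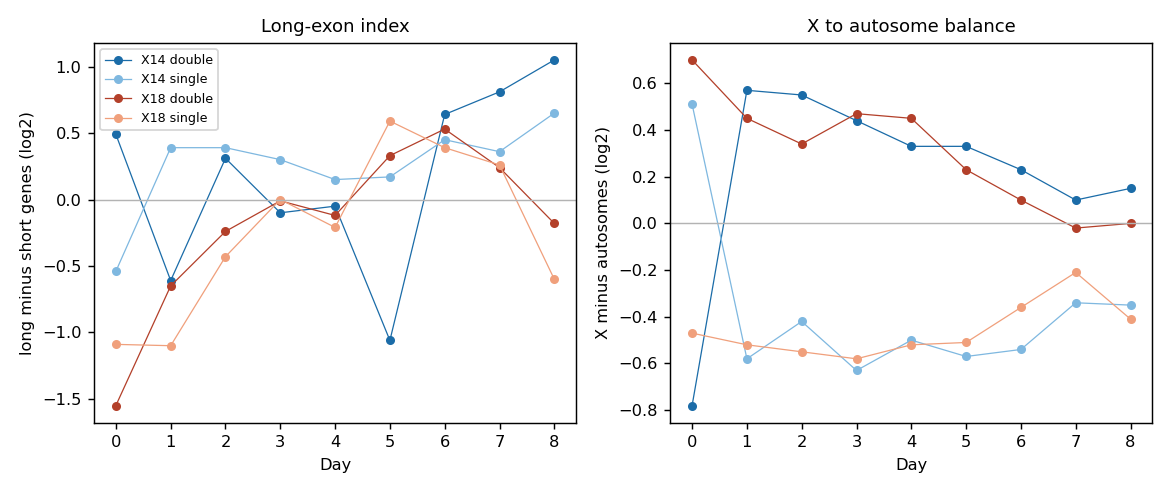
Left, long-exon index of each library by day (log2). Right, median log2 value of X-linked minus autosomal genes relative to day 0. Colours give line and label. The lowest index was -1.55, in X18 double on day 0, and the 2 X14 libraries of day 0 lie on opposite sides of the right plot from those of days 1 to 8.

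To ask when subunits departed from the naive state, each day was compared with day 0. A gene was called when the Benjamini-Hochberg adjusted p from limma was under 0.05 over all tested genes and the level moved by a log2 value of 1 or more in either direction. No subunit was called on day 1 (0.0684% of all genes were) or on day 2 (2.96% of all genes were). An unadjusted limma p under 0.05 was found for 2 subunits on day 1 and for 11 on day 2. The share of all genes at that unadjusted limit is not given here, so these are not read further. With the replicate number as a block, 3 subunits were called on day 2, and no share of all genes is given for that fit. Day 3 had calls for 5 of the 28 (8.89% of all genes) and day 4 for 9 (18.6%). The count was 4 for day 5 (26.8%) and 13 for day 6 (33.4%). Day 7 gave 7 calls (35.4%) and day 8 gave 11 (35%). Between day 4 and day 8, 6 were called (24.7% of all genes). Over the whole course 18 of 28 (64.3%) changed by the F test at an adjusted p under 0.05, and 65.2% of all genes did. Single replicates decided several of these counts. The shares of all genes above belong to the main fit, and the refits below have none beside them. Without replicate 1 they were 7 for day 2, 10 for days 3 and 5, 14 for day 7 and 20 by the F test, and without replicate 2, 3 or 4 they were 1 for day 3, 4 for day 4 and 7 to 9 by the F test. Day 6 gave 6 without replicate 3 and 8 without replicate 4, and day 7 gave 4 without replicate 3. With each library's trend with exon length removed, day 6 gave 7.

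Most calls were upward, among the subunits and among all genes. On day 8, 9 subunits were higher and 2 lower, while 23.9% of all genes were higher and 11.1% lower. The median log2 change was 0.48 in the subunits and 0.23 in all genes, and 0.35 and 0.24 with the length trend of each library removed. On day 4, 8 were higher (12.2% of all genes) and 1 lower (6.4%), with medians of 0.64 and 0.12. Over all days 18 subunits were called at least once, 15 of them only as higher, Actl6a and Smarcd3 only as lower and Dpf1 both ways. Among all genes 54.9% were called at least once, 34.7% only as higher, 19.2% only as lower and 1.02% both ways. The day 8 count was 7 without day 0 replicate 3 and day 5 replicate 1, and 6 with the length trend of each library removed (34.1% of all genes). It was 4 without replicate 3, 6 without replicate 2 and 5 with quantile normalization. No share of all genes is given for the other refits. Actl6a, Dpf1 and Bcl7c were called on day 8 under each of the 15 alternatives, and Smarcd1, Bcl11a and Arid2 kept their call on day 4 under each alternative in which they were tested. For Bcl11a this call sets day 4 against libraries of day 0 with almost no reads.

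**Figure D2:**
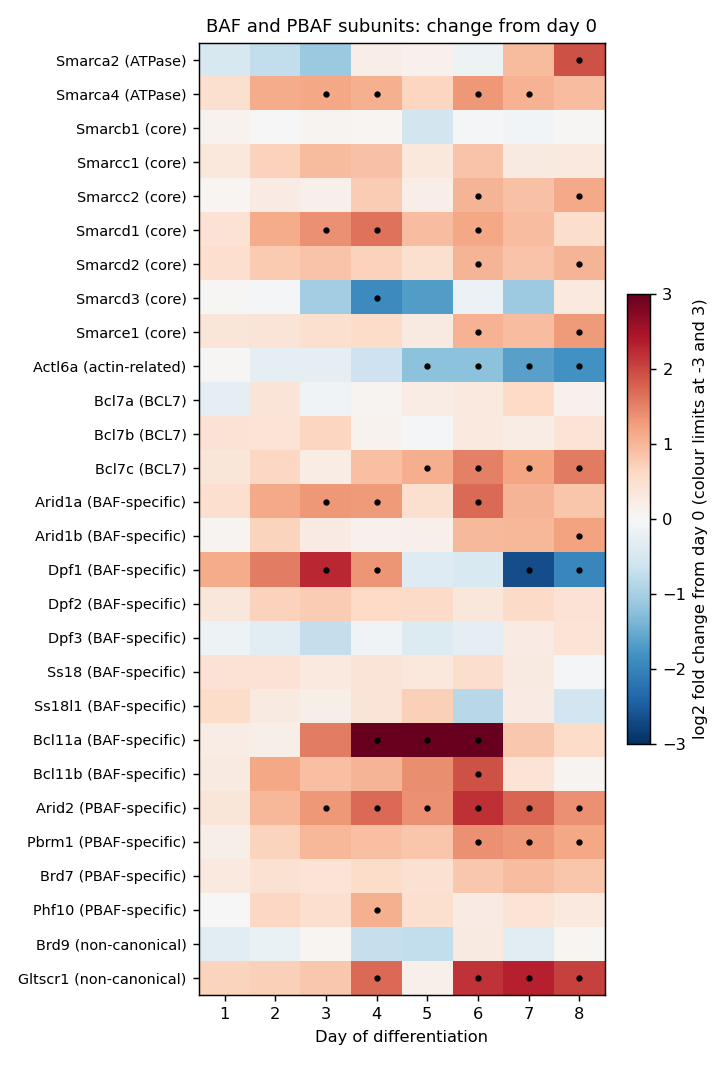
Log2 fold change from day 0 (colour) of the 28 tested subunits on days 1 to 8, grouped by role; a dot marks an adjusted p under 0.05 and a log2 fold change of at least 1. Actl6a is blue from day 4 on, Dpf1 turns from red to blue, Bcl11a is red on days 4 to 6 and Smarca2 rises on day 8.

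Both ATPases were called higher than on day 0, Smarca4 before day 8 and Smarca2 on day 8. Smarca4 was the more abundant on every day, at 26.9 ± 21.7 RPKM (SD, n = 4) on day 0 against 1.25 ± 0.671 RPKM for Smarca2. Smarca4 read 373, 169, 57.6 and 97.3 RPM on day 0, 231, 374, 260 and 299 RPM on day 4, and 261, 343, 226 and 221 RPM on day 8. The groups overlapped, because X14 double on day 0 lay above 3 of the 4 libraries of day 4, and this library also had the highest long-exon index of day 0. Smarca4 was called higher on days 3, 4, 6 and 7, with a log2 fold change of 1.06 ± 0.37 (SE) on day 4 (limma adjusted p = 0.0298) and 0.92 ± 0.37 on day 8 (adjusted p = 0.0392, below the fold limit). The day 4 call was kept in 5 of 15 alternatives. The value was 0.65 and not called without day 0 X18 double and day 5 X14 double, and 0.89 with the length trend removed.

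Smarca2 moved late. It read 14.3, 13, 9.25 and 2.56 RPM on day 0 and only 4.67, 2.36, 5.19 and 3.41 RPM on day 3, its lowest day. On day 7 it stood at 24.5, 10.6, 16.3 and 15.1 RPM, and on day 8 at 53.5, 19.4, 46.1 and 17.8 RPM. All 4 libraries of day 8 were above all 4 of day 0 and of day 4, with both libraries labelled double the highest. The log2 fold change was 1.9 ± 0.63 from day 0 (limma adjusted p = 0.0141) and 1.7 ± 0.63 from day 4 (adjusted p = 0.0373). The day 8 call was lost with quantile normalization (1.36) and without replicate 3 (1.76).

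**Figure D3:**
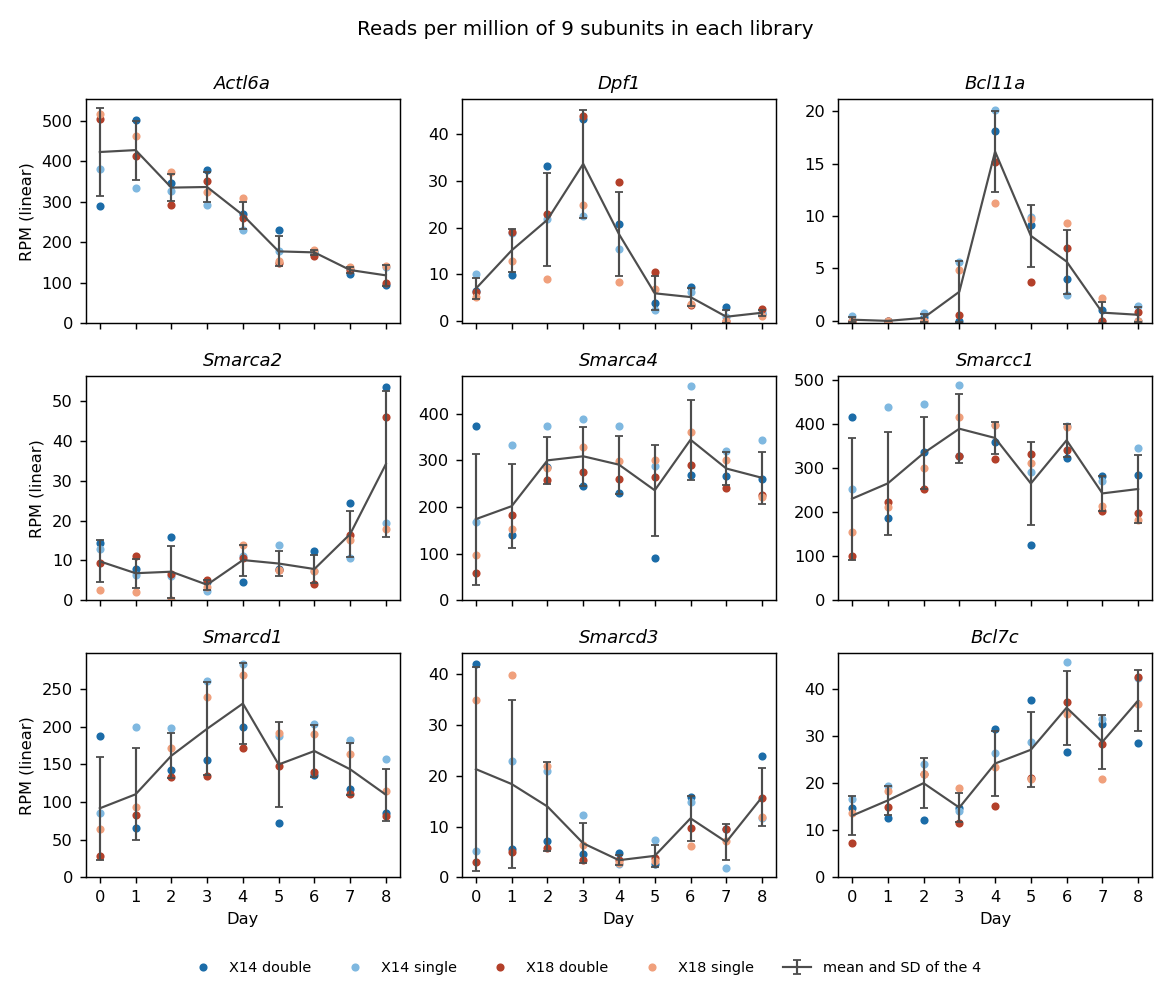
RPM (linear axis) by day for 9 subunits; points are single libraries coloured by line and label, and the line with bars gives the mean and SD of the 4. Actl6a declines from day 1, Dpf1 peaks on day 3, Bcl11a on day 4, and Smarca2 is highest on day 8.

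Among the core subunits, Smarcc1 (BAF155) and Smarcc2 (BAF170) form the scaffold on which the complex assembles. Smarcc1 was the higher on each day, with 34.7 ± 20.8 RPKM on day 0 against 3.71 ± 2.32 for Smarcc2. Smarcc1 measured 415, 253, 99.7 and 154 RPM on day 0, 327, 488, 327 and 415 RPM on day 3 and 284, 346, 198 and 182 RPM on day 8. It was called on no day, although its adjusted p was 0.0441 on day 3 (log2 fold change 0.94 ± 0.31) and 0.0387 on day 4 (0.87 ± 0.31). On day 8 its change of 0.29 ± 0.31 (adjusted p = 0.479) fell to -0.05 without these 2 libraries. Smarcc2 measured 35.2, 17.6, 8.22 and 13.7 RPM on day 0 and 54.5, 47.6, 33.1 and 19 RPM on day 8, which overlap. All 4 cultures had more on day 8 (log2 fold change 1.14 ± 0.4, adjusted p = 0.0197), but the call was kept in only 7 of 15 alternatives, among them neither the fit without the 2 libraries (0.81) nor the one without the length trend (0.97).

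The 3 Smarcd genes (BAF60a, b and c) are alternative partners that link the complex to transcription factors, and each took a different course. Smarcd1 read 188, 85.2, 28.8 and 64 RPM on day 0, 199, 283, 172 and 268 RPM on day 4 and 85.1, 157, 81.8 and 114 RPM on day 8. It was higher on day 4 in all 4 cultures (log2 fold change 1.62 ± 0.38, adjusted p = 0.00168). It then fell by 1.09 ± 0.38 to day 8 (adjusted p = 0.024), with no overlap between days 4 and 8. Smarcd3 had the reverse shape, with 42.1, 5.09, 3.08 and 35 RPM on day 0, 4.71, 2.59, 3.38 and 2.8 RPM on day 4 and 23.9, 11.7, 15.7 and 11.9 RPM on day 8. On day 0 X14 double and X18 single were high and the other libraries low. Its fall by 1.91 ± 0.71 from day 0 to day 4 (adjusted p = 0.0429) was not called without replicate 1, 2 or 4, whereas the rise of 2.2 ± 0.71 from day 4 to day 8 (adjusted p = 0.0152) had no overlap between the days. On day 8 Smarcd3 was not called against day 0 (0.29 ± 0.71, adjusted p = 0.769). Smarcd2 read 85.1, 67.6, 15.4 and 41.8 RPM on day 0 and 106, 86.5, 117 and 59.5 RPM on day 8. The log2 fold change was 1.03 ± 0.33 (adjusted p = 0.0118). Without these 2 libraries the Smarcd2 value was 0.53 and was not called. Lines of Smarcd1 and Smarcd3 overlap the genes Gm17349 and Chpf2, and the use of strand in counting is not stated, so reads of these neighbours cannot be told apart from theirs.

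Smarce1 (BAF57), which carries a DNA-binding HMG domain, was higher on day 8. Its day 0 values of 20.8, 21.3, 17.5 and 25.6 RPM were all below those of day 8, which were 35.3, 54.9, 54.8 and 65.4 RPM. The log2 fold change was 1.28 ± 0.27 (limma adjusted p = 2.1e-04), and only quantile normalization (0.79) took it below the fold limit. Smarcb1 (SNF5) measured 164, 133, 89.4 and 142 RPM on day 0 and 95.5, 144, 136 and 163 RPM on day 8, and it was called on no day. Its log2 change on day 8 was 0.03 ± 0.22 with a 95% interval from -0.41 to 0.48 (adjusted p = 0.915).

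In the actin-related position 1 of the paralogues fell and the other was not detected. Actl6a (BAF53a), the form found in dividing cells, read 290, 380, 503 and 517 RPM on day 0, 269, 230, 259 and 310 RPM on day 4, 175, 178, 167 and 180 RPM on day 6, and 93.4, 138, 100 and 142 RPM on day 8. From day 5 on, no library reached the lowest value of day 0. The fall from day 0 was 0.63 ± 0.17 on day 4 (adjusted p = 0.00721) and reached the call limit on day 5. On day 8 Actl6a fell by 1.82 ± 0.17 on the log2 scale (adjusted p = 2.9e-10), to 0.282 of its day 0 level, with changes of -1.63, -1.47, -2.33 and -1.87 in the 4 cultures. Its alternatives ranged from -2.03 to -1.63 on day 8. Actl6b (BAF53b), the neuronal paralogue, had 0 reads in all 36 libraries, which allows up to 3 reads, or 1.04 to 3.9 RPM, in a library. No replacement of Actl6a by Actl6b was detectable at this depth.

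The 3 BCL7 proteins are small subunits attached to the ATPase module. Bcl7c read 14.8, 16.7, 7.19 and 13.7 RPM on day 0, 31.6, 26.5, 15.2 and 23.5 RPM on day 4 and 28.6, 42.3, 42.6 and 36.9 RPM on day 8. It was called higher on days 5 to 8, with a log2 fold change of 1.57 ± 0.3 on day 8 (adjusted p = 6.3e-05), 1.06 to 1.78 over the alternatives. Bcl7a and Bcl7b were called on no day, with mean values from 14.1 to 26.7 RPM and from 11 to 17.3 RPM. Their log2 changes on day 8 were 0.12 ± 0.33 (adjusted p = 0.794) and 0.41 ± 0.3 (adjusted p = 0.279). The line of Bcl7a overlaps Gm15860.

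The DNA-binding subunits Arid1a and Arid1b are mutually exclusive in the canonical complex. Arid1a, with 11476 exonic bases, read 251, 88.4, 40.1 and 64.9 RPM on day 0, and these 4 libraries stood in the same order as by the long-exon index. This order on day 0 was not particular to long transcripts. It was also that of Smarcd1 (3153 exonic bases) and Bcl7b (2404), but not that of Actl6a (2764). On day 4 it read 193, 285, 171 and 207 RPM, on day 5, 39, 146, 182 and 211 RPM, and on day 8, 201, 247, 121 and 98.7 RPM. It was called higher on days 3, 4 and 6, with 1.27 ± 0.43 on day 4 (adjusted p = 0.0267), but the day 4 value was 0.9 without these 2 libraries and 0.95 with the length trend removed, and neither was called. Arid1b, with 12600 exonic bases, read 55.5, 29.6, 8.22 and 23 RPM on day 0 and 88.8, 69.5, 41.8 and 33.3 RPM on day 8 (1.2 ± 0.44, adjusted p = 0.0269). Its values on day 8 followed the order of the index too, and the call was lost without the 2 libraries (0.69) and without the length trend (0.72). From day 4 to day 8 Arid1b changed by 1.07 ± 0.44 with an adjusted p of 0.0621, which was 0.0476 with the replicate block. The part of exon length in these values was not tested further.

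The DPF proteins read acetylated histones through paired PHD fingers, and Dpf1 (BAF45b) rose and fell within the 9 days. It read 6.48, 10.2, 6.17 and 5.12 RPM on day 0 and 9.86, 18.9, 19 and 12.9 RPM on day 1. On day 3 it read 43.3, 22.6, 43.8 and 24.9 RPM, on day 5, 3.9, 2.47, 10.6 and 6.95 RPM, and on day 8, 1.56, 1.94, 2.61 and 1.19 RPM. Neither the days 0 and 3 nor the days 0 and 8 overlapped. Dpf1 was 2.25 ± 0.49 higher on day 3 (log2, 4.76-fold, adjusted p = 0.00228). On day 4 it was 1.32 ± 0.49 higher than on day 0 (limma adjusted p = 0.043), a call kept in 5 of 15 alternatives. It was called lower on day 8 than on day 0 (adjusted p = 0.00146) and than on day 4 (adjusted p = 3.2e-06). Because the day 8 libraries held only 1 to 4 reads of Dpf1, the size is given from pooled reads, with exact 95% intervals that cover counting error only. Day 8 held 11 reads and day 0 held 48, a ratio of 0.248 per read of the libraries (0.116 to 0.484). Against the 123 reads of day 4 the ratio was 0.0987 (0.048 to 0.183). The neuronal markers summed to 525 to 606 RPM on day 3 and to 177 to 267 RPM on day 4, and their part in the course of Dpf1 was not tested. Stmn2 and Tubb3 made up most of this sum, with 416 and 131 RPM on day 3, whereas Elavl3 and Syp averaged 5.66 and 0.411 RPM on day 3 and 13.3 and 6.14 RPM on day 4. Dpf2 (BAF45d), the broadly expressed form, stayed between mean values of 80.5 and 125 RPM and was called on no day. Dpf3 had 0 to 6 reads in a library and no fold is given for it.

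Ss18 and Ss18l1 (CREST) are alternative subunits of the canonical complex. Ss18 read 113, 135, 80.2 and 104 RPM on day 0 and 86.2, 108, 94 and 126 RPM on day 8 (-0.05 ± 0.18, adjusted p = 0.838). It changed over the 9 days by the F test (adjusted p = 0.0453) with mean values from 104 to 155 RPM. Ss18l1 had mean values from 3.42 to 9.9 RPM and was called on no day (day 8, -0.58 ± 0.51, adjusted p = 0.368).

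Bcl11a and Bcl11b are zinc finger transcription factors found with the canonical complex, best known from lymphoid and neural cells. Bcl11a had at most 1 read in every library of days 0 and 1. It then read 0, 5.66, 0.576 and 4.88 RPM on day 3, 18.1, 20.1, 15.2 and 11.2 RPM on day 4, 9.1, 9.88, 3.75 and 9.73 RPM on day 5, and 0, 1.46, 0.87 and 0 RPM on day 8. The 4 libraries of day 4 were all above every library of day 0 and day 8. Bcl11a was called higher on day 4 than on day 0 (limma adjusted p = 1.9e-07) and lower on day 8 than on day 4 (adjusted p = 1.1e-06). It reached 1 RPM in no library of days 0 to 2, so it passed the filter only through later days, those when it was high among them. All but 1 library of day 0 carried the value written for no reads. These p-values are therefore not taken as support, although the counts of calls on days 4 to 6 include Bcl11a. From pooled reads, the 105 reads of day 4 against 1 read of day 0 gave a ratio of 103, with an exact 95% counting interval from 18.1 to 4110. The 4 reads of day 8 gave a ratio of 0.042 to day 4 (0.0112 to 0.111). The 4 lymphoid markers summed to at most 2.69 RPM on day 4, and Ptprc was at 0 reads there. Of the 7 neuronal markers tested 3 were called higher and 1 lower on day 4. Neurod1 had mean levels of 0.926, 9.08 and 0.251 RPM on days 0, 4 and 8. From day 0 to day 4 the more abundant Stmn2 went from 385 to 145 RPM and Tubb3 from 84.1 to 45.2 RPM. The part of such cells in the course of Bcl11a was not tested. Bcl11b reached at most 6.82 RPM, on day 6 in X18 single, and had 0 reads in all libraries of day 8. It was called on day 6 alone (limma adjusted p = 0.0249). Because day 0 held at most 1 read in a library, no fold is given and this p-value is not taken as support.

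Of the 4 subunits that define PBAF, Arid2 (BAF200) was called on the most days. It read 108, 42.1, 26.7 and 28.2 RPM on day 0, 124, 181, 115 and 154 RPM on day 4, 191, 186, 198 and 206 RPM on day 6 and 142, 184, 90.5 and 65.4 RPM on day 8. All libraries of day 4 lay above those of day 0, and Arid2 was called on each day from day 3 to day 8, with a log2 fold change of 1.71 ± 0.4 at day 4 (adjusted p = 0.00171). The value peaked at 2.18 ± 0.4 at day 6 (adjusted p = 4.9e-05) and was 1.37 ± 0.4 at day 8 (adjusted p = 0.0055). The day 8 call was lost in 4 of 15 alternatives, removal of the length trend among them (0.95), and the day 4 call in 0. Pbrm1 (polybromo), which reads acetylated histones with its bromodomains, had 128, 60.2, 22.6 and 57.2 RPM on day 0 and 184, 194, 94.9 and 70.2 RPM on day 8 (1.15 ± 0.42, adjusted p = 0.0246). Without these 2 libraries it was 0.71 and not called.

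Phf10 (BAF45a) peaked on day 4. It read 118, 95.4, 62.7 and 78.5 RPM on day 0, 128, 215, 164 and 242 RPM on day 4 and 85.7, 115, 112 and 115 RPM on day 8. Day 4 did not overlap day 0 or day 8. The change was 1.07 ± 0.23 from day 0 to day 4 (adjusted p = 7.8e-04), and this call was kept in 8 of 15 alternatives, with values down to 0.89. Phf10 fell by 0.77 ± 0.23 from day 4 to day 8 (adjusted p = 0.00979). The line of Phf10 overlaps 1600012H06Rik. Brd7, a bromodomain protein, went from 81, 74.6, 24.7 and 65.7 RPM on day 0 to 76.8, 112, 107 and 108 RPM on day 8. Its change of 0.84 ± 0.24 had an adjusted p of 0.00537 but did not reach the fold limit.

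In the non-canonical complex, Gltscr1 (now Bicra) was the scarcer of the pair analysed. It read 11.1, 2.78, 1.03 and 4.27 RPM on day 0, 14.8, 11, 12.4 and 7.29 RPM on day 4, 23.5, 21.2, 13.7 and 12.9 RPM on day 7 and 26.5, 22.4, 11.3 and 5.95 RPM on day 8. All 4 cultures rose, with a log2 fold change of 2.05 ± 0.56 on day 8 (adjusted p = 0.00302), although X14 double on day 0 lay above X18 single on day 8. The call was lost without replicate 2 (1.73) or replicate 3 (1.58). Brd9, a bromodomain protein, was called on no day. It measured 24.5, 23.2, 15.4 and 21.3 RPM on day 0 and 19.7, 29.6, 21.8 and 17.8 RPM on day 8 (0.07 ± 0.29, adjusted p = 0.866), and its lowest mean was 12.6 RPM on day 5.

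To ask whether paralogues replaced each other, log2 ratios of RPKM were formed within each library for 15 pairs, and the 14 pairs with both genes tested were compared between days 0 and 8 over all 70 ways of dividing the 8 libraries (exact permutation test, two-sided, with 0.0286 as the smallest p it can give). A ratio within a library is free of its scaling but not of a length trend. In 4 pairs the days did not overlap, and for none was the adjusted p under 0.05, since the smallest value 4 such pairs allow over 14 is 0.1. The Smarcc2/Smarcc1 log2 ratio went from -3.22 ± 0.15 (SD, n = 4) on day 0 to -2.37 ± 0.38 on day 8 (exact p = 0.0286, adjusted p = 0.1), in all 4 cultures. Dpf1/Dpf2 went from -2.54 ± 0.83 to -4.93 ± 0.47 (exact p = 0.0286, adjusted p = 0.1), after a peak of -1.07 ± 0.64 on day 3, and the day 8 value rests on 1 to 4 reads of Dpf1 in a library. Bcl7c/Bcl7b went from -0.92 ± 0.29 to 0.24 ± 0.56 (exact p = 0.0286, adjusted p = 0.1), and Brd7/Brd9 from 0.3 ± 0.5 to 1.07 ± 0.32 (exact p = 0.0286, adjusted p = 0.1).

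The ATPase ratio Smarca2/Smarca4 was -4.35 ± 1.15 on day 0, -6.63 ± 0.79 on day 3 and -3.37 ± 0.95 on day 8, and days 0 and 8 were not told apart (difference 0.98, exact p = 0.229, adjusted p = 0.457). Smarca4 was above Smarca2 in all 36 libraries on the RPKM scale. Smarcd3/Smarcd1 went from -3.11 ± 1.38 on day 0 to -6.63 ± 0.67 on day 4 (exact p = 0.0286, adjusted p = 0.08) and was back at -3.34 ± 0.86 on day 8 (exact p = 0.8 against day 0). Arid1b/Arid1a went from -2.02 ± 0.41 to -3.16 ± 0.15 on day 4 (exact p = 0.0286, adjusted p = 0.08) and to -1.66 ± 0.27 on day 8 (exact p = 0.229). Smarcd2/Smarcd1 was lower on day 4 by 0.93 (exact p = 0.0286, adjusted p = 0.08), and Bcl7c/Bcl7b higher by 0.8 (exact p = 0.0286, adjusted p = 0.08). Ratios with Dpf3, Bcl11a or Bcl11b rest on libraries without reads and are not read further.

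**Figure D4:**
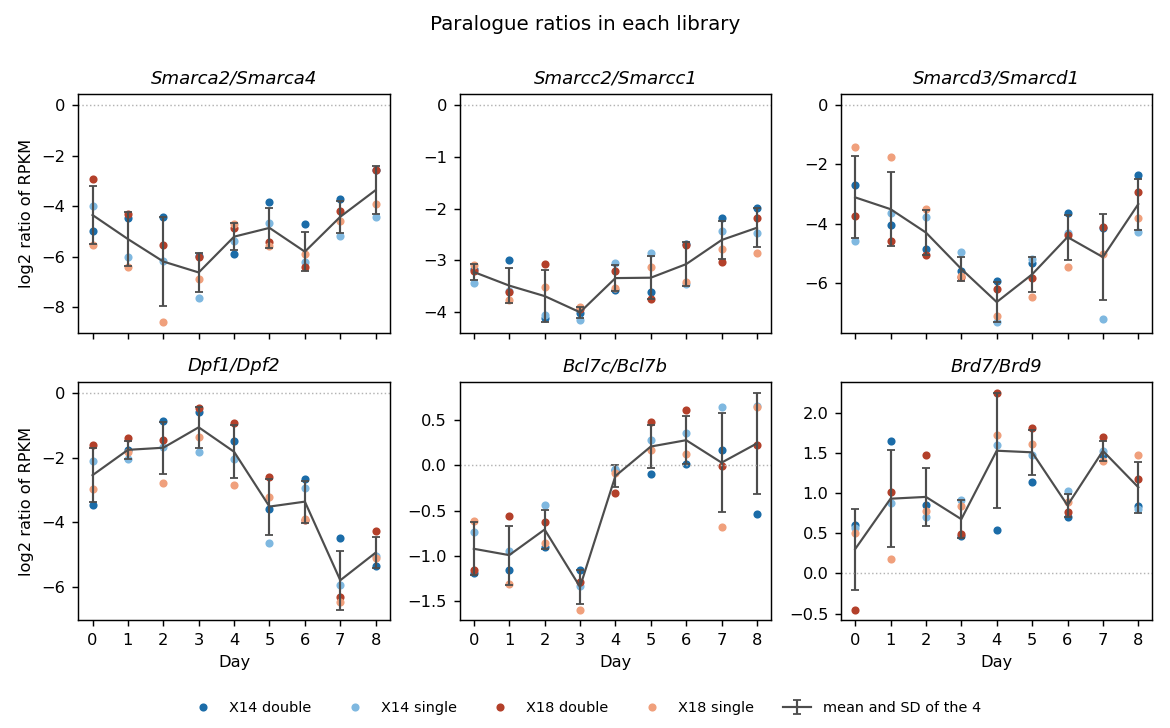
Log2 ratio of RPKM by day for 6 paralogue pairs; points are libraries coloured by line and label, lines with bars the mean and SD of 4, and the dotted line equal levels. Smarcd3/Smarcd1 is lowest on day 4, at a mean of -6.63, and Dpf1/Dpf2 peaks on day 3.

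To ask whether subunit levels went with the label, double was set against single in limma, adjusting for day and line, at an adjusted p under 0.05 with no minimum fold change. Over all 36 libraries 4 subunits were lower in double (8.62% of all genes were) and 0 were higher (7.06% of all genes were). Each label stands for only 2 combinations of line and label that recur on every day, and the fit treats their libraries as independent, so the p-values do not measure the spread between cultures. The count was 2 without replicate 1 (Smarcb1 and Smarcd1, with 7.83% of all genes called) and 0 without replicate 2, 3 or 4, where 4.36%, 1.51% and 1.19% of all genes were called. The fits without replicate 3 or 4 keep both X14 libraries of day 0. The 4 were Smarcd1, at -0.6 ± 0.14 (adjusted p = 0.00363), Smarcb1 at -0.35 ± 0.08 (adjusted p = 0.0049), Phf10 at -0.37 ± 0.09 (adjusted p = 0.00497) and Bcl11b, for which no size is given because many libraries held no reads (adjusted p = 0.0394). Without day 0, where the X14 libraries went against their labels, 7 were lower in double (12.8% of all genes) and Dpf1 alone was higher (9.76% of all genes). Smarcd1 was then at -0.67 ± 0.09 (adjusted p = 3.7e-06) and Phf10 at -0.41 ± 0.08 (adjusted p = 3.7e-04). Smarca4 joined at -0.45 ± 0.12 (adjusted p = 0.005), Smarcc1 at -0.31 ± 0.11 (adjusted p = 0.0483) and Brd7 at -0.25 ± 0.07 (adjusted p = 0.0151). Dpf1 was at 0.62 ± 0.23 (adjusted p = 0.0474).

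Smarcd1 was lower in double on each of days 1 to 8 in both lines, by a mean of 0.86 in X14 and 0.48 in X18. On day 0 it was 1.14 higher in X14 double and 1.15 lower in X18 double. Smarca4 was lower in double on 8 of 8 days in X14 (mean difference -0.76) and on 6 of 8 in X18 (-0.14). Within X14 alone 0 subunits were called over the 9 days and 0% of all genes were. This fit holds day 0, where the X14 libraries went against their labels. No fit of X14 without day 0 is given, so the 0 is not read as an absence of a label difference in X14. Within X18 alone Smarcb1 and Smarcd1 were called lower in double, as were 3.97% of all genes. The long-exon index was lower in X14 double than in X14 single on each of days 1 to 5 and higher on days 6 to 8, and with the length trend removed 5 subunits were called lower in double (10.2% of all genes).

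**Figure D5:**
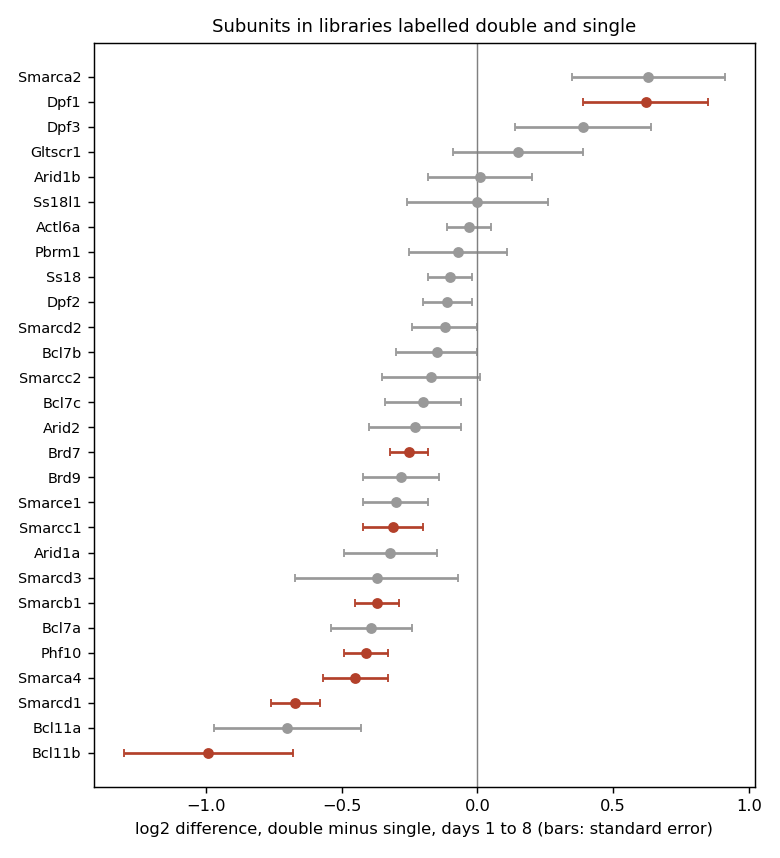
Log2 difference between libraries labelled double and single on days 1 to 8 for the 28 tested subunits, adjusted for day and line; bars are standard errors and red points have an adjusted p under 0.05. Smarcd1 lies at -0.67 and Dpf1 at 0.62, and the Bcl11a and Bcl11b points rest on few reads.

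Lines X18 and X14 differed in no subunit by limma at an adjusted p under 0.05. At that limit 0.00684% of all genes were higher and 0.0137% lower in X18. An unadjusted p under 0.05 was found for 5 subunits, all lower in X18. No share of all genes is given at the unadjusted limit, so the 5 are not read as a result about the subunits. The largest difference of these 5 was in Arid1b (-0.46 ± 0.2, adjusted p = 0.242). Without day 0 replicate 3 and day 5 replicate 1, Arid1a and Pbrm1 were called lower in X18, as were 2.73% of all genes. Whether the change from day 0 to day 8 depended on the label or the line was tested by interaction terms. For the label, limma called 0 subunits (17 of all genes), and 0 subunits had an unadjusted p under 0.05. This term rests on the X14 libraries of day 0, which went against the labels of the other days. For the line, limma called 0 subunits (20 of all genes). An unadjusted p under 0.05 was found for 6 subunits, with the lowest for Brd7 (difference 1.16 ± 0.4, limma adjusted p = 0.188). The share of all genes at that unadjusted limit is not given here, so the 6 are not read further.

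For comparison, 40 subunits of other remodelling complexes (ISWI, CHD and NuRD, INO80 and SRCAP) were counted by the same rule. On day 4, 11 were higher and 1 lower, with a median log2 change of 0.43, and on day 8, 9 were higher and 3 lower, with a median of 0.39. Of the 11 INO80 and SRCAP subunits 0 were called on day 4 and 1, Actr6, was lower on day 8, and of the 20 CHD and NuRD subunits 8 were higher on day 4. No difference between these lists and the BAF subunits was tested.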

How the data were processed

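RNA-seq of 36 libraries (4 on each of 9 days) was examined. According to the methods and labels of the study, RNA was extracted with the Zymo Quick-RNA kit, sequenced as single-end reads, demultiplexed with bcl2fastq, trimmed with trim_galore, aligned to mm10 with TopHat2 2.0.12 (the methods also name hisat2). Genes were quantified in SeqMonk by its pipeline for RNA-seq. The annotation version and the use of strand are not given in the sources used here. The values deposited by the authors are log2 RPKM. Their low values gave whole reads for 100% of entries (within 0.05 read, with 0.9 read written by the authors for no reads), and RPM was computed from these reads. All value columns were mapped and 0 were left over.

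Differential expression was tested on the deposited log2 values with limma 3.58.1 (lmFit, eBayes with trend) in R 4.3.3, with day as the factor over all libraries, or day, line and label, on 14612 genes with at least 1 RPM in at least 4 libraries. p-values were Benjamini-Hochberg adjusted over these genes. Ratios were compared by two-sided exact permutation tests. The fits were tested on simulated data. Replicate numbers mark the same line and label on every day and so pair the libraries by name. The mean correlation of same-numbered deviations from the day means was 0.09 to 0.17, with a lowest value of -0.58 in replicate 1. Between days 0 and 8 it was 0.02 to 0.3. Alternatives were other filters, scalings, a pseudocount of 1, voom on the recovered reads, the replicate block, leaving out each replicate and, chosen after seeing the data, leaving out 2 libraries and removing each library's trend with exon length.

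Every subunit with a line is named. Full statistics are given for subunits called on day 8 or day 4 against day 0, the 6 with the largest change on day 8, Smarca4 and Smarcc1. The members and lists were chosen with earlier results of these data known. Depth of 612740 to 2445826 reads limits genes near the floor, and floors cover counting error only.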

Additional observations from a re-analysis of the deposited data

Results flagged for a closer look

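In 5 of 84 groups of 4 libraries (28 subunits on days 0, 4 and 8), 1 library lay far from the other 3 (gap over range above Dixon's 95% critical value), which chance gives in about 1 of 20 groups. On day 0, Bcl7a was at 27.8 RPM in X14 double against 14.4 to 15.3 RPM in the others. On day 8, X14 double was low for Brd7 (76.8 RPM against 107 to 112 RPM) and for Phf10 (85.7 RPM against 112 to 115 RPM). This library also had the highest long-exon index, 1.05, and the part of this in the 2 values was not tested. Bcl11a and Bcl11b each had a single read on day 0, in X14 single and X14 double (0.463 RPM in both), and none in the other 3 libraries.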

How the results depend on the processing

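Changes from day 0 were recomputed under 15 alternatives, 2 of them chosen after seeing the data (leaving out day 0 replicate 3 and day 5 replicate 1, and removing each library's length trend). Of the values recomputed, 664 kept their direction and their side of the threshold, 150 lost a call or fell in count by over 1.5 times, 20 gained and 43 changed sign. Each change of sign was in a value that was not called. The cause of these changes was not tested. Counts of called subunits in this section stand without the share of all genes in the same fit, so they describe stability only. Without a filter, day 3 gave 2 called subunits, and with a mean of at least 10 RPM day 2 gave 1. The 75th percentile scaling gave 7 on day 8, and quantile normalization gave 3 on day 3 and 5 on day 8. Voom gave 5 on day 4, 8 on day 6 and 8 by label. Fits of only the 2 days compared gave 1, 4, 2 and 7 on days 3, 4, 5 and 8, and could not be made for label or line. Without a minimum fold change day 7 gave 11. The replicate block gave 3 on day 2 and moved no other count past 1.5 times. For the ratios, pairing by replicate cannot give a p under 0.05 with 4 pairs. By label, a minimum log2 fold change of 1 gave 0 subunits and leaving out day 0 gave 8. With day 0 included, X14 alone gave 0 and X18 alone 2. Without the 2 libraries, days 3, 4, 6 and 8 had 1, 4, 7 and 7 called subunits, the label 7 and the line 2. With the length trend removed, days 3, 6, 7 and 8 had 2, 7, 4 and 6.

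Leaving out each replicate in turn gave 0 to 7 called subunits for day 2, 1 to 10 for day 3 and 4 to 11 for day 4. The range was 3 to 10 for day 5, 6 to 15 for day 6, 4 to 14 for day 7 and 4 to 15 for day 8. It gave 7 to 20 over the course and 0 to 2 by label. The highest count for each of days 2 to 8 and for the course came without replicate 1, X14 double, the library of day 0 with the highest long-exon index.

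Of the log2 changes on day 8, Smarcb1 was -0.17 with 75th percentile scaling, -0.2 with quantile normalization, -0.09 with voom, -0.3 without the length trend and -0.14 without the 2 libraries, and -0.16 to 0.3 leaving out a replicate. Bcl7a was -0.08 with the 75th percentile, -0.48 with quantiles and -0.23 without the length trend, and -0.19 to 0.37 leaving out a replicate. Bcl11b was -0.12, -0.27 and -0.25 in those fits, -0.14 with a pseudocount of 1 RPM, -0.36 with voom, and -0.05 to 0.28 leaving out a replicate or the 2 libraries. Brd9 was -0.13 with the 75th percentile, -0.31 with quantiles, -0.02 with voom and -0.07 without the 2 libraries, and -0.07 to 0.2 leaving out a replicate. Smarcd3 was -0.27 with quantiles and -0.38 without the 2 libraries, and -0.39 to 0.91 leaving out a replicate. Quantiles gave -0.07 for Bcl7b and -0.09 for Dpf3, Smarcc1 was -0.05 without the 2 libraries and up to 0.56 leaving out a replicate, and Ss18 was -0.16 to 0.06 leaving out a replicate.

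Log2 ratios compared between day 4 and day 0, in place of day 8, were of the other sign for Smarca2/Smarca4 (-0.86), Smarcc2/Smarcc1 (-0.12), Smarcd2/Smarcd1 (-0.93), Arid1b/Arid1a (-1.14), Dpf1/Dpf2 (0.72) and Phf10/Dpf2 (0.47), and 0 for Ss18l1/Ss18. Leaving out a replicate gave -0.59 to 0.49 for Smarcd3/Smarcd1, -0.49 to 0.45 for Dpf3/Dpf2 and -0.88 to 0.01 for Ss18l1/Ss18. Depth limits Dpf3, Bcl11a, Bcl11b and Actl6b, and Dpf1 on days 7 and 8, which lay near the floor of 3 reads.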
